A study of Homo sapiens with 25 samples.

Results

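The genes described here are 56 genes of the mitotic spindle, the kinetochore, chromosome condensation and cytokinesis, together with the kinases, cyclins and ubiquitin ligase parts that drive a cell into and out of mitosis. They were taken by symbol from a list of G2/M and mitosis genes that leaves out the Aurora kinases and the other subunits of the chromosomal passenger complex. All 56 were found among the 31919 genes of the expression table, and all 56 passed the filter on low values that left 18799 genes for testing. For reading, they were set in 6 groups by role: 9 genes of mitotic entry, 9 of the spindle checkpoint and anaphase, 8 of the centromere and kinetochore, 14 of the spindle, 9 of cytokinesis and 7 of chromosome structure.

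Most of these genes are transcribed periodically, with their messages rising late in S phase, peaking in G2 and mitosis and being lost as cells return to G1. In quiescent cells their promoters are held silent by the DREAM complex, and in cycling cells the MuvB core together with B-MYB and FOXM1 switches them on. In bulk RNA from a growing culture, of leukaemia cells as of other dividing cells, they are therefore widely used as a readout of the fraction of cells in G2 and mitosis.

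DND-41, an established human T-cell acute lymphoblastic leukaemia line, was grown in medium with 100%, 50%, 25% or 12.5% of the full amount of histidine or with none, and total RNA was sequenced on day 6 and day 9 after strand-specific library preparation. Histidine is an essential amino acid, so these cells depend on the medium for it. Day 6 had 3 libraries each at 100%, 50%, 12.5% and none and 2 at 25%; day 9 had 3 libraries each at 100%, 25% and 12.5%, 2 at 50% and, among the samples analysed here, none without histidine. All 25 libraries come from 1 line with no genetic change named in the labels, and nothing in the labels says that the replicates were separate cultures, so the p-values measure the spread between these libraries, which may be technical.

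The values are normalized counts, and the 25 library totals lay between 13574787 and 16097408. Of 11 T-lineage markers, 8 (CD3D, CD3E, CD3G, CD7, CD1A, LCK, TLX3 and PTPRC) had at least 100 in every library, and PTCRA was under 10 in all. The summed T-lineage markers ranged from 35870 to 54425, against 1.03 to 31.7 for myeloid, 62.1 to 166 for B-cell, 0 to 7.89 for erythroid and 0 to 60.0 for fibroblast markers. Epithelial keratins set some libraries apart: the sum of KRT8, KRT18 and KRT19 was over 100 in 6 libraries, namely replicates 1 and 2 at 100% on day 6 (383 and 1406), replicates 1 and 2 at 50% on day 6 (1196 and 119) and replicates 1 and 3 at 25% on day 9 (788 and 1358). Counts of called members, or median changes, are therefore also given without these 6. Leaving them out leaves 1 library each at 100% and 50% on day 6 and at 25% on day 9. For those groups, a call lost through keratin and 1 lost through fewer libraries cannot be told apart. One of the libraries without histidine carries day 6 in its title and day 9 in its time label; it is replicate 1 and was kept at day 6. Left out, it moved no member's change without histidine against 100%, 25% or 12.5% by more than -0.18 to 0.14.

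Because the shared control of these genes lies in their promoters, 4 upstream stretches are shown before the values. Each is the 250 bases before the RefSeq transcription start on GRCh38.p14, 5′ to 3′ on the gene's own strand, with 2 motifs in capitals on whichever strand they lie: TTTGAA, the cell cycle genes homology region (CHR) through which the MuvB core binds, and CCAAT, the box bound by NF-Y. CCNB2 (chr15:59104896-59105145, plus strand) and PLK1 (chr16:23678639-23678888, plus strand) are shown because they were among the genes that rose most at 25% histidine, MKI67 (chr10:128126424-128126673, minus strand) because it is the usual proliferation marker, and NCAPD2 (chr12:6493852-6494101, plus strand) because it was the member that fell at 25% on day 6.
CCNB2: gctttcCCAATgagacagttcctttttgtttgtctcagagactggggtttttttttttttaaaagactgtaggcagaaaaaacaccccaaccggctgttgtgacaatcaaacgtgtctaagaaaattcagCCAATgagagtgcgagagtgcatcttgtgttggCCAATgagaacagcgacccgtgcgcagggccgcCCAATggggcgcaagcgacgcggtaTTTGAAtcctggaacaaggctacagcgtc
PLK1: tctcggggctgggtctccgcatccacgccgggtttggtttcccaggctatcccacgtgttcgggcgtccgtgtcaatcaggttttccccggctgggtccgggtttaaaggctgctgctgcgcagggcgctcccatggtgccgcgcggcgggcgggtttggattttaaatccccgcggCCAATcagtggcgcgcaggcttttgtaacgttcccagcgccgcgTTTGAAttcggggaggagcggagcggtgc
MKI67: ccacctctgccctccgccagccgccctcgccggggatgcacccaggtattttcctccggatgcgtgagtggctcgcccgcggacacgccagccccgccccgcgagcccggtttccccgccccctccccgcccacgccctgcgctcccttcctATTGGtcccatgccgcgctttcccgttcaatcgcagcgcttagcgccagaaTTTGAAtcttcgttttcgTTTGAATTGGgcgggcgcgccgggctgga
NCAPD2: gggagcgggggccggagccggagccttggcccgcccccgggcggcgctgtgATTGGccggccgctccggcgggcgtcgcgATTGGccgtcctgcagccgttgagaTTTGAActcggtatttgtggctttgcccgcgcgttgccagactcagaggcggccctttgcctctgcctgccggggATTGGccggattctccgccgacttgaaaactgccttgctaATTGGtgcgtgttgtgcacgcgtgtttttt
The CHR lies 29 bases before the start in CCNB2 and PLK1 and at 47 and 29 in MKI67, while in NCAPD2 it lies 145 bases before the start. CCAAT occurs 4 times in CCNB2, 1 time in PLK1, 2 times in MKI67 and 4 times in NCAPD2.

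Over the window from 250 bases before to 50 after the start, 50 of the 56 members had a RefSeq promoter and 6 had none in the table. TTTGAA was present on either strand in 35 of the 50 (70%), against 15.47% of 27162 promoters of the same length. CCAAT was present in 35 as well, against 35.73% of all promoters, and 21 members (42%) had CCAAT 2 or more times, against 11.33%. Both motifs together were in 27 members (54%) and in 6.104% of all promoters. The forkhead core TAAACA, in contrast, was in 4 members (8%) and in 12.44% of all promoters, and TTCGAA, a CHR variant, was in 2 (4%) against 1.458%. Within the members, TTTGAA was in 22 of the 29 that were higher at 25% histidine on day 6, in 12 of the 20 that did not pass and in the 1 that was lower. On day 9 it was in 31 of the 44 that were higher and in 4 of the 6 that did not pass. CCAAT was in 20 of the 29 higher on day 6 and in 14 of the 20 that did not pass. The layout of CCNB2 and PLK1 was not shared by all genes that rose most at 25%. NDC80, with the largest rise on day 6, had TTTGAA from 3 bases before the start and no CCAAT. CDC25C, second on day 6, had neither motif. PTTG1, second on day 9, had CCAAT 3 times and no TTTGAA. A motif match is a description of these letters and not a measured binding site.

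Across the histidine series most of the 56 genes peaked at 25%. Their mean was highest there for 44 of 56 genes on day 6 and for 53 of 56 on day 9, against 21.9% and 25.2% of all genes tested, and on day 6 the lowest mean was without histidine for all 56, against 23.9%. Of the other 12 on day 6, 8 were highest at 50%, 3 at 12.5% and 1 at 100%. On day 9, where no library without histidine was analysed here, the lowest mean was at 12.5% for 35 genes, at 100% for 18 and at 50% for 3 (27.4%, 23.7% and 26.6% of all genes). BUB3, TTK, ESPL1, SPC24, KIF15, CEP55 and NCAPH, 7 in all, passed at 25% on neither day. The heat map of all members by library shows the same shape library by library.

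**Figure D1:**
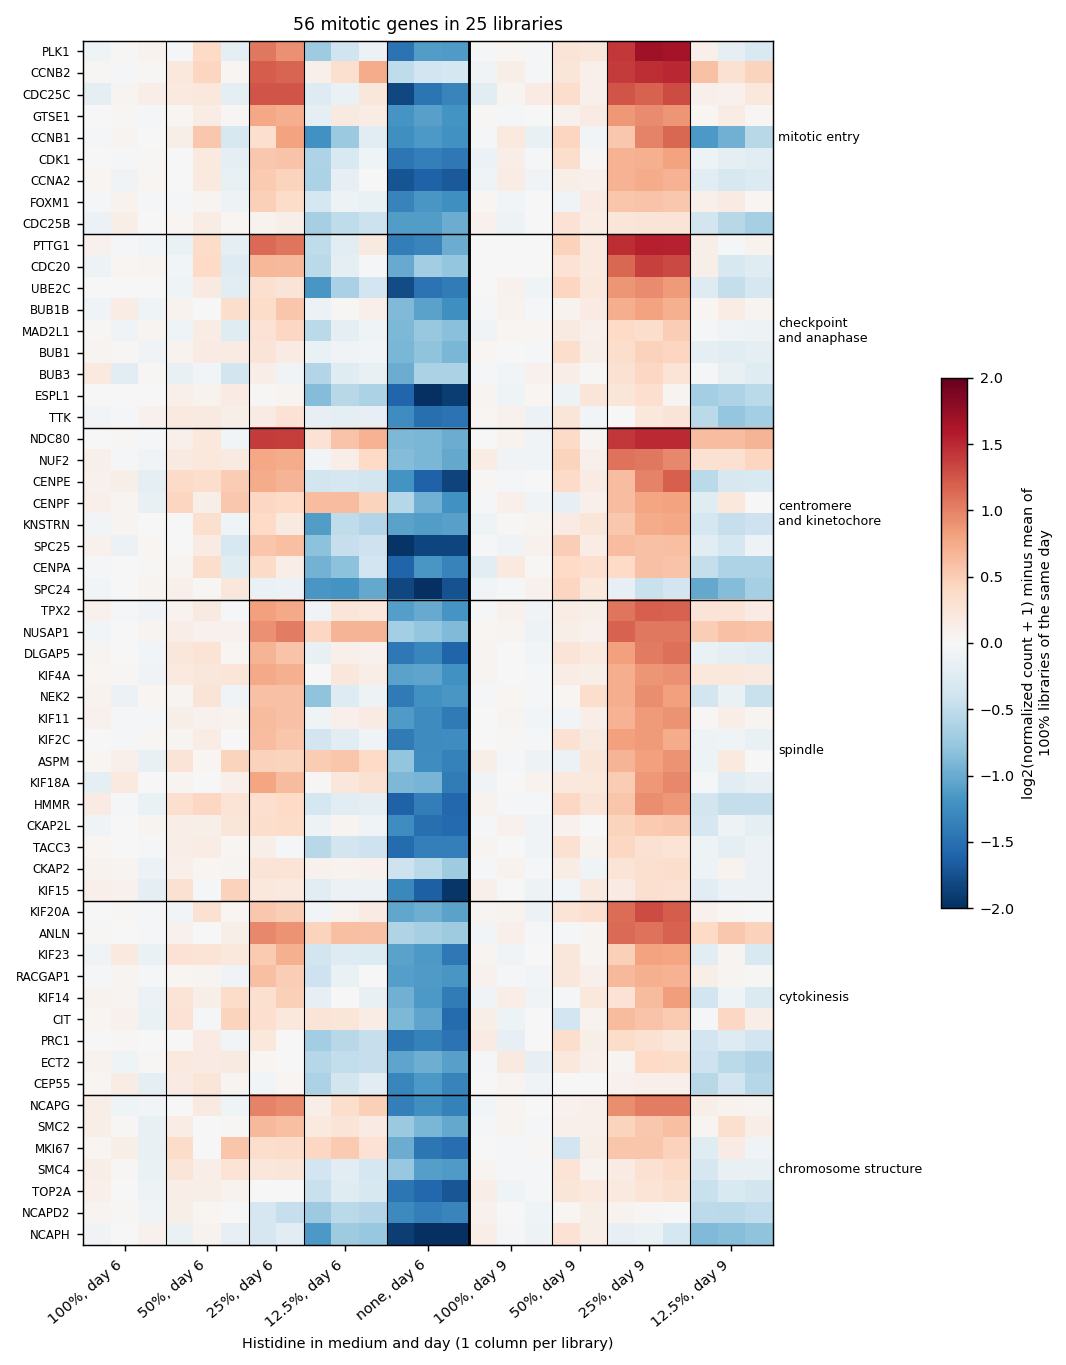
Heat map of log2(normalized count + 1) minus the mean of the 100% libraries of the same day, with 1 row for each of the 56 genes, grouped by role, and 1 column for each of the 25 libraries, ordered by day and histidine level. The 25% libraries are red for most rows on both days (52 and 49 of 56 genes above 0 on day 6; 54, 54 and 53 on day 9), and the 3 libraries without histidine are blue in every row.

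Summed over the 56 genes, the members took between 1.09% and 1.16% of a library's normalized counts at 100% on day 6, 1.48% and 1.51% at 25%, and 0.489% to 0.591% without histidine. On day 9 the share was 0.967% to 1.03% at 100%, and 1.44% to 1.58% at 25%. The shares at 25% lay above all those at 100%, and those without histidine lay below every other library. At 50% on day 6 the shares, 1.27%, 1.21% and 1.35%, also lay above the 100% libraries. At 12.5% on day 6 the share was 1.17% to 1.28%, again above the 100% libraries. The members' summed counts overlapped (158567 to 179574 at 12.5% and 167334 to 180017 at 100%). MKI67 alone held 27390 to 32096 of these counts at 12.5% and 20249.7 to 24195 at 100%. The median member was below the 100% mean in each 12.5% library of day 6 (-0.36, -0.17 and -0.08 on the log2 scale). The library totals of day 6 were lower at 12.5%, 13574787 to 14829226 against 15324635 to 15583402. On day 9 the shares at 12.5% were 0.901%, 1.00% and 0.983%, which overlapped those at 100%.

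At 25% histidine, 32 of the 56 members were higher than at 100% on day 6 and 1 was lower, at a Benjamini-Hochberg adjusted p under 0.05 from limma. Changes are differences in mean log2(normalized count + 1) between groups, with their standard errors (SE) from that fit. Of all genes tested, 6.79% were higher and 6.92% lower in that comparison. The median change of the members was 0.46 on the log2 scale (range -0.39 to 1.39), against a median near 0 for all genes (0.00096). The 2 libraries at 25% lay above the 3 at 100% without overlap for 46 members and below them for 3, whereas 22.3% and 22.8% of all genes were separated in those directions. Fewer cells in a phase of the cycle and less RNA per cell cannot be told apart in bulk RNA, and this holds for every comparison below.

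On day 9 the rise at 25% covered 48 members, with none lower, against 9.4% of all genes higher and 8.76% lower. The median member change was 0.70, and the libraries did not overlap for 50 members that were higher and 2 that were lower, against 17.6% and 17.2% of all genes. The same 32 genes that were higher on day 6 were also among the 48 on day 9. The matching overlap over all genes was not counted, so this one is a description. The rise was present in each library taken alone: the median member stood 0.44 and 0.46 above the 100% mean in the 2 libraries of day 6, and 0.59, 0.74 and 0.76 above it in the 3 of day 9.

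The count on day 6 depends on the 2 libraries at 25%. With replicate 3 left out, 21 members passed in place of 33, and the lone remaining library was then taken to vary like the other groups. In all, 12 of the 33 calls of day 6 were lost when 1 library or another was left out (CCNA2, CDK1, BUB1B, MAD2L1, CDC20, SPC25, HMMR, CKAP2L, ASPM, NEK2, KIF23 and NCAPD2; adjusted p 0.0512 to 0.277), as were 6 of the 48 of day 9 (CDC25B, CENPA, PRC1, ECT2, TOP2A and SMC4; up to 0.246). Leaving out the 6 keratin-high libraries leaves 1 library at 100% on day 6 and 1 at 25% on day 9. The median member changes at 25% were then 0.53 on day 6 and 0.74 on day 9. With the keratin sum as a covariate, the counts at 25% stayed within 1.5 times of 33 on day 6 and 48 on day 9. The part of the keratin-high libraries in these changes was not tested beyond that.

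At 50% histidine no member passed limma's test on either day. Background calls were 0 of all genes on day 6 and 0.00532% on day 9. In sign, 49 of 56 changes were positive on day 6 (median 0.08) and 53 of 56 on day 9 (median 0.17), against 48.1% and 51.9% of all genes. At an unadjusted p under 0.05 there were 7 and 14 members, against 3.7% and 4.82% of all genes. The 3 libraries at 50% on day 6 had member medians of 0.10, 0.16 and 0.04 relative to 100%, and the 2 of day 9 had 0.22 and 0.12. A change of this size was not distinguishable from the spread between libraries for any single gene.

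The step from 50% down to 25% uses no full-medium library and gave the same picture. On day 6, 26 members were higher at 25% than at 50% and 1 was lower (7.19% and 6.81% of all genes; median 0.34), and on day 9, 37 were higher and 2 lower (6.64% and 7.21%; median 0.55). The 2 that were lower on day 9 were SPC24 and NCAPH, and the 1 on day 6 was NCAPD2. Without the keratin-high libraries these 3 no longer passed as lower. That fit leaves 1 library at 50% on day 6 and 1 at 25% on day 9.

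Without histidine on day 6, all 56 members were lower than at 100%. Of all genes tested, 16.5% were lower and 13.3% higher. The median member change was -1.22, the range was -2.01 to -0.42, and the 3 libraries without histidine lay below the 3 at 100% for all 56 genes, against 21.9% of all genes. Each of the 3 libraries showed it, with member medians of -1.16, -1.15 and -1.28, and leaving out any 1 library, the one with the day 9 time label included, left all 56 called. Without the keratin-high libraries 55 passed, and the gene lost there, as with the keratin sum as a covariate, was CCNB2 (-0.43 ± 0.18 SE, adjusted p = 0.123).

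All 56 members were likewise lower without histidine than at 25% (median -1.68; 14.7% of all genes lower, 12.4% higher). Against 12.5%, which is the nearest level, 54 of 56 were lower without histidine and none higher (median -1.09; 8.26% of all genes lower, 7% higher). The 2 that did not pass were CCNB1 (-0.46 ± 0.22 SE, adjusted p = 0.177) and KNSTRN (-0.35 ± 0.13 SE, adjusted p = 0.0653). Without the library with the day 9 time label, all 56 were lower against 100% (range -2.10 to -0.37) and against 25% (median -1.72), and 53 against 12.5%, with BUB3 the one lost (-0.30 ± 0.12 SE, adjusted p = 0.0956). Without the keratin-high libraries the counts were 56 against 25% and 54 against 12.5%.

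At 12.5% histidine more members were lower than higher. On day 6, 21 were lower than at 100% and 8 higher (15.3% of all genes lower, 11.7% higher), with a median of -0.19 and a range from -1.13 to 0.59. On day 9, 15 were lower and 7 higher (11.5% and 9.35%), with a median of -0.14. The numbers higher were near the background on both days. CCNB2, NDC80, NUSAP1 and ANLN were higher on both days, 12 members were lower on both days, and no member had opposite calls on the days. The shares of all genes with such calls on both days were not computed, so these counts are a description. Leaving out 1 library or another ended 11 of the 29 calls of day 6 (CCNB1, CCNB2, CDK1, PLK1, BUB3, KIF2C, NEK2, CEP55, MKI67, NCAPG and SMC4; adjusted p up to 0.327) and 8 of the 22 of day 9 (CCNB2, NUF2, CENPA, CENPE, KNSTRN, KIF4A, TPX2 and PRC1; up to 0.174). Without the keratin-high libraries 17 members passed on day 6 in place of 29, and 20 on day 9 in place of 22.

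Set against 25% instead of 100%, 12.5% was lower almost throughout: 48 members were lower on day 6 and 54 on day 9, with none higher on either day. The background was 10.7% of all genes lower and 7.08% higher on day 6, and 4.42% lower and 2.4% higher on day 9. The median steps were -0.62 and -0.79. Without the keratin-high libraries, 48 passed on day 6 and 42 on day 9. The 8 that did not pass on day 6 included MKI67, CENPF and ASPM, whose changes from 25% to 12.5% were 0.06, 0.15 and 0.03.

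**Figure D2:**
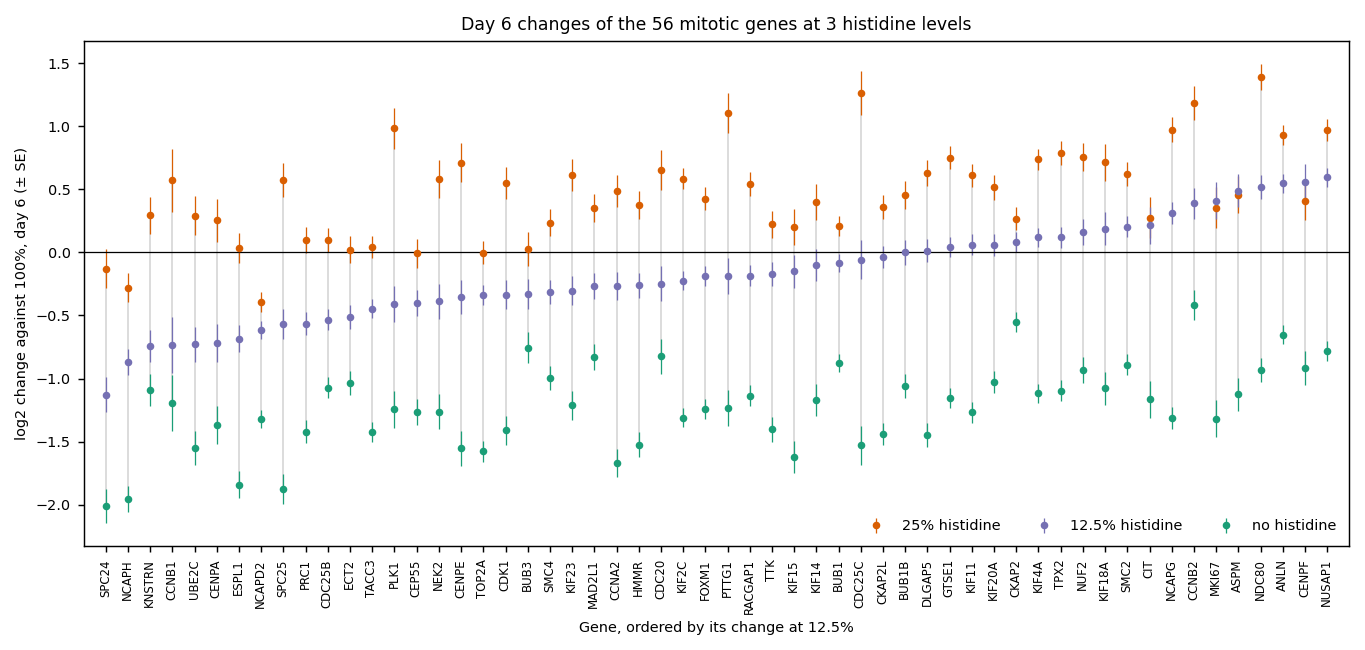
Day 6 log2 changes against 100% histidine (± SE from limma) for the 56 genes on the x axis, ordered by their change at 12.5%, with 1 colour for 25%, 1 for 12.5% and 1 for no histidine. The points without histidine lie between -2.01 and -0.42, the points at 12.5% run from -1.13 to 0.59 across the 0 line, and most points at 25% lie above 0.

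The fall from 25% to none can be divided into 2 steps. From 25% to none on day 6, the median member had covered 35.3% of its log2 fall by 12.5% (quartiles 28.6% and 47.9%), and 13 of 56 had covered over 50%. Without the library with the day 9 time label the median was 35.3% (quartiles 27.9% and 50.04%), and 14 had covered over 50%. KNSTRN (74.5%), CCNB1 (73.8%), PLK1 (62.4%) and CDC20 (60.9%) had most of their fall behind them at 12.5%. For CIT (4.21%), ASPM (-2.08%), MKI67 (-3.29%) and CENPF (-11.6%) nearly the whole fall came between 12.5% and none. These shares are a description, since each rests on the same libraries at 12.5%. Changes at 12.5% on day 6 also moved with transcript length over all genes, as given below. The longest coding transcripts of CIT, ASPM, MKI67 and CENPF have 8708 to 12678 bases. Those of KNSTRN, CCNB1, PLK1 and CDC20 have 1777 to 2227. CENPE, with 8612 bases, had covered 47.0%. The shares were not computed with the length trend removed.

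Genes of mitotic entry switch a G2 cell into mitosis, with CDK1 and its B-type cyclins as the central kinase, the CDC25 phosphatases as its activators and PLK1 as its partner. Of these 9 genes, 7 were higher at 25% on day 6 and all 9 on day 9 (median changes 0.57 and 0.89). At 12.5% on day 6, 1 was higher and 4 lower, and without histidine all 9 were lower (median -1.24). Values by library, here and for the other roles, are normalized counts in the order of the replicate numbers.

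PLK1 (chr16:23678889-23690367 on GRCh38.p14), the polo-like kinase that acts from centrosome maturation through cytokinesis, showed the largest rise on day 9. On day 6 PLK1 was 2676, 2887 and 3004 at 100%, 2772, 3754 and 2487 at 50%, 5948 and 5348 at 25%, 1744, 2169 and 2628 at 12.5%, and 1024, 1312 and 1296 without histidine. On day 9 PLK1 was 2242, 2339.6 and 2223 at 100%, 2715 and 2652 at 50%, 6038, 7349 and 7196 at 25%, and 2427, 1981 and 1835 at 12.5%. Every 25% library was above every other library of its day, and on day 6 those without histidine were the lowest. The change at 25% was 0.98 ± 0.16 SE (adjusted p = 0.000181) on day 6 and 1.59 ± 0.14 SE (adjusted p = 5.3e-08) on day 9, where the mean was 3.02 times that at 100%. At 12.5% it was -0.41 ± 0.14 SE (adjusted p = 0.0385) on day 6, a call that was lost when any of 5 libraries was left out (adjusted p 0.0516 to 0.245) or when the trend of change with transcript length over all genes was removed (-0.23, adjusted p = 0.104), and -0.13 ± 0.14 SE (adjusted p = 0.575) on day 9.

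CCNB1 and CCNB2 encode the mitotic cyclins B1 and B2, and at 12.5% histidine the first passed downward and the second upward. On day 6 CCNB1 was 534, 568 and 543 at 100%, 596, 795 and 441 at 50%, 692 and 959 at 25%, 235, 326 and 467 at 12.5%, and 234, 246 and 237 without histidine. On day 9 CCNB1 was 442, 515 and 406 at 100%, 608 and 434 at 50%, 659, 899 and 1006 at 25%, and 204, 232 and 306 at 12.5%. The 12.5% libraries lay below all 100% libraries on both days, and on day 6 they overlapped those without histidine. CCNB1 changed by -0.73 ± 0.22 SE (adjusted p = 0.0166) at 12.5% on day 6 and by -0.89 ± 0.22 SE (adjusted p = 0.00558) on day 9; the day 6 call was lost without replicate 1 at 12.5% (-0.49 ± 0.23 SE, adjusted p = 0.139). At 25% it was 0.57 ± 0.25 SE (adjusted p = 0.141) on day 6 and 0.89 ± 0.22 SE (adjusted p = 0.00581) on day 9.

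On day 6 CCNB2 was 871, 828 and 865 at 100%, 991, 1156 and 877 at 50%, 1971 and 1919.5 at 25%, 918, 1070.4 and 1423 at 12.5%, and 602, 652 and 667 without histidine. On day 9 CCNB2 was 713, 810.0 and 724 at 100%, 888 and 799 at 50%, 1970.3, 2089.7 and 2138 at 25%, and 1119, 920.5 and 1019.6 at 12.5%. For CCNB2 the 12.5% libraries lay above the 100% libraries on both days and below the 25% libraries. The changes at 25% were 1.19 ± 0.14 SE (adjusted p = 2.92e-06) and 1.46 ± 0.12 SE (adjusted p = 1.99e-08), and those at 12.5% were 0.39 ± 0.12 SE (adjusted p = 0.0197) and 0.44 ± 0.12 SE (adjusted p = 0.0106). The 12.5% calls were lost on day 6 without replicate 2 at 100% (adjusted p = 0.0614) or replicate 3 at 12.5% (adjusted p = 0.164), and on day 9 without replicate 1 at 12.5% (adjusted p = 0.0601). Without histidine CCNB2 fell least of the 56, with a change of -0.42 ± 0.12 SE (adjusted p = 0.0109), so that its mean at 100% was 1.33 times that without histidine, against 2.29 times for CCNB1.

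CDC25C and CDC25B are phosphatases that remove the inhibitory phosphates from CDK1. On day 6 CDC25C was 216, 257 and 269.6 at 100%, 284, 285 and 214 at 50%, 594 and 591 at 25%, 205, 224 and 288 at 12.5%, and 69.4, 89.1 and 98.6 without histidine. On day 9 CDC25C was 180.0, 218 and 234 at 100%, 268 and 226 at 50%, 502, 477 and 517 at 25%, and 225, 222 and 243 at 12.5%. The 25% libraries were far above the rest on both days, and the 12.5% libraries overlapped those at 100%. CDC25C had the second largest rise at 25% on day 6 (1.26 ± 0.17 SE (adjusted p = 2.17e-05)) and fell from 25% to none by 2.79 on the log2 scale, the widest span of any member.

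On day 6 CDC25B was 4539, 5314 and 4954 at 100%, 5051, 5487 and 5087 at 50%, 5189 and 5354 at 25%, 3095, 3474 and 3665 at 12.5%, and 2271, 2277 and 2482 without histidine. On day 9 CDC25B was 4362, 3843 and 4116 at 100%, 5003 and 4558 at 50%, 4832, 4901 and 4925 at 25%, and 3167, 2781 and 2578 at 12.5%. CDC25B at 25% overlapped 100% on day 6, while at 12.5% all libraries were below 100% on both days. It changed by 0.10 ± 0.09 SE (adjusted p = 0.586) at 25% on day 6 and by -0.53 ± 0.08 SE (adjusted p = 5.84e-05) and -0.53 ± 0.08 SE (adjusted p = 7.39e-05) at 12.5% on the 2 days. Its rise at 25% on day 9 (0.25 ± 0.08 SE (adjusted p = 0.0405)) was lost when any of 5 libraries was left out (adjusted p 0.0804 to 0.166).

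FOXM1, the forkhead factor that drives transcription of late cell cycle genes, was higher at 25% on both days. On day 6 FOXM1 was 4392, 4693 and 4364 at 100%, 4395, 4652 and 4192 at 50%, 6244 and 5809 at 25%, 3527, 4197 and 4096 at 12.5%, and 1780.1, 2000.2 and 1906 without histidine. On day 9 FOXM1 was 3877, 3622 and 3767 at 100%, 3559.9 and 4203 at 50%, 5537, 5548 and 5459 at 25%, and 4009, 4201 and 3846 at 12.5%. The 25% libraries stood above the rest on each day. The changes were 0.43 ± 0.09 SE (adjusted p = 0.0018) at 25% on day 6, 0.55 ± 0.08 SE (adjusted p = 2.17e-05) on day 9 and -1.24 ± 0.08 SE (adjusted p = 3.45e-11) without histidine. Among the others of this role, CDK1 rose by 0.55 and 0.74 at 25% on days 6 and 9, cyclin A2 (CCNA2) by 0.48 and 0.71, and GTSE1, a microtubule-associated protein of G2 and S phase, by 0.75 and 0.90.

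The spindle checkpoint (BUB1, BUB1B, BUB3, MAD2L1 and TTK) holds the anaphase-promoting complex until chromosomes are attached. CDC20, UBE2C and separase (ESPL1) carry out the step to anaphase, and securin (PTTG1) is the inhibitor of separase. Of these 9 genes, 4 were higher at 25% on day 6 and 6 on day 9, and all 9 were lower without histidine (median -1.06). The 6 of day 9 were PTTG1, CDC20 and UBE2C, described next, with BUB1B, MAD2L1 (0.42) and BUB1 (0.41).

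On day 6 PTTG1 was 1179, 1082 and 1075 at 100%, 1008, 1426 and 971 at 50%, 2444 and 2343 at 25%, 779.9, 953 and 1252 at 12.5%, and 424, 446 and 559 without histidine. On day 9 PTTG1 was 856, 867 and 868 at 100%, 1191 and 984 at 50%, 2393, 2528 and 2511 at 25%, and 936, 840.4 and 902 at 12.5%. PTTG1 at 25% was above every other library on both days, and at 12.5% it overlapped 100%. The change at 25% was 1.11 ± 0.16 SE (adjusted p = 4.35e-05) on day 6 and 1.52 ± 0.14 SE (adjusted p = 8.86e-08) on day 9, the second largest rise of that day, and it was -1.23 ± 0.14 SE (adjusted p = 4.27e-07) without histidine.

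CDC20, the activator of the anaphase-promoting complex in mitosis, followed the same order. On day 6 CDC20 was 2246, 2479 and 2506 at 100%, 2312, 3185 and 2016 at 50%, 3797 and 3778 at 25%, 1661, 2112 and 2376 at 12.5%, and 1196, 1493 and 1403 without histidine. On day 9 CDC20 was 1991, 1977 and 1953 at 100%, 2408 and 2250.3 at 50%, 4356, 5100.4 and 4922 at 25%, and 2145, 1584 and 1664 at 12.5%. The 25% libraries were again the highest, and the 12.5% libraries overlapped the 100% libraries on each day. CDC20 rose by 0.65 ± 0.16 SE (adjusted p = 0.00625) at 25% on day 6, a call lost without either of the 2 libraries at 25% (adjusted p 0.0557 and 0.0569), and by 1.28 ± 0.14 SE (adjusted p = 8.59e-07) on day 9.

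UBE2C is the ubiquitin-conjugating enzyme that works with that complex. On day 6 UBE2C was 2948, 2922 and 2894 at 100%, 2749, 3325 and 2534 at 50%, 3659 and 3487 at 25%, 1304, 1868 and 2248 at 12.5%, and 847, 1053 and 1110.2 without histidine. On day 9 UBE2C was 2143, 2284 and 2017 at 100%, 2879 and 2484 at 50%, 3956, 4123 and 3892 at 25%, and 1786, 1537 and 1701 at 12.5%. The libraries at 12.5% were all below those at 100% on both days. At 12.5% UBE2C changed by -0.73 ± 0.14 SE (adjusted p = 0.000379) on day 6 (-0.34 with the length trend removed) and -0.36 ± 0.14 SE (adjusted p = 0.0689) on day 9. At 25% it changed by 0.29 ± 0.15 SE (adjusted p = 0.251) and 0.89 ± 0.14 SE (adjusted p = 5.96e-05).

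BUB1B, which encodes the checkpoint protein BUBR1, rose at 25%. On day 6 BUB1B was 1723, 2003 and 1711 at 100%, 1903, 1810.4 and 2304 at 50%, 2320.0 and 2644 at 25%, 1668, 1837 and 1933 at 12.5%, and 981, 856 and 776 without histidine. On day 9 BUB1B was 1404, 1518 and 1411 at 100%, 1508 and 1622 at 50%, 2397, 2518 and 2352 at 25%, and 1479, 1599 and 1507 at 12.5%. The 12.5% libraries overlapped those at 100% on both days, and the 25% libraries were above both. The change at 25% was 0.45 ± 0.11 SE (adjusted p = 0.00649) on day 6 (0.36 ± 0.14 SE, adjusted p = 0.136, without replicate 3 at 25%) and 0.75 ± 0.10 SE (adjusted p = 8.53e-06) on day 9.

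ESPL1, the protease that opens cohesin at anaphase, did not pass at 25% on either day. On day 6 ESPL1 was 3388, 3406 and 3400.3 at 100%, 3637, 3557 and 3801 at 50%, 3442 and 3527 at 25%, 1859, 2319.8 and 2196 at 12.5%, and 1128, 828 and 911 without histidine. On day 9 ESPL1 was 2836, 2551 and 2787 at 100%, 2531 and 3236 at 50%, 3209.9, 3433 and 2834 at 25%, and 1692, 1773 and 1868 at 12.5%. At 12.5% every library was below 100% on both days, and without histidine the values were lower again. ESPL1 changed by 0.04 ± 0.12 SE (adjusted p = 0.903) and 0.21 ± 0.11 SE (adjusted p = 0.197) at 25% and by -0.68 ± 0.11 SE (adjusted p = 4.98e-05) and -0.62 ± 0.11 SE (adjusted p = 0.000206) at 12.5%. Its change without histidine was -1.84 ± 0.11 SE (adjusted p = 7.68e-12). BUB3 (0.03 and 0.33) and TTK (0.22 and 0.15) did not pass at 25% on either day, and TTK was lower at 12.5% on day 9 (-0.66).

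The kinetochore joins the centromere to spindle microtubules through the NDC80 complex, which is built from NDC80, NUF2, SPC24 and SPC25. These 4 subunits form 1 rod. NDC80 and NUF2, which hold the microtubule-binding heads, rose at 25% on both days, as did SPC25, and SPC24 did not pass there. At 12.5% on day 6 NDC80 was higher and SPC25 (-0.57) and SPC24 were lower.

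NDC80 (chr18:2571557-2616635) had the largest rise of the 56 at 25% on day 6. On day 6 NDC80 was 1924, 1949.7 and 1866 at 100%, 2042, 2208 and 1834 at 50%, 5034 and 5002 at 25%, 2336, 2831 and 3100.1 at 12.5%, and 1025, 1015 and 964 without histidine. On day 9 NDC80 was 1931, 2013 and 1832 at 100%, 2496 and 2006 at 50%, 5146, 5414 and 5402 at 25%, and 2942, 2959 and 3068 at 12.5%. No library overlapped between 100%, 25%, 12.5% and none. The change at 25% was 1.39 ± 0.10 SE (adjusted p = 1.01e-08) on day 6, where the mean was 2.62 times that at 100%, and 1.47 ± 0.09 SE (adjusted p = 5.11e-10) on day 9. At 12.5% NDC80 was still higher by 0.52 ± 0.09 SE (adjusted p = 0.000219) and 0.64 ± 0.09 SE (adjusted p = 2.97e-05).

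SPC24 (chr19:11145493-11155782) had the largest fall without histidine. On day 6 SPC24 was 723, 746 and 782 at 100%, 805, 765 and 877 at 50%, 680.3 and 691 at 25%, 335, 325 and 369.9 at 12.5%, and 211, 136 and 223 without histidine. On day 9 SPC24 was 612, 628 and 674 at 100%, 857 and 741 at 50%, 570.4, 467 and 489.6 at 25%, and 314, 351 and 399.9 at 12.5%. The 25% libraries were below the 100% libraries on both days without passing the test (-0.13 ± 0.15 SE (adjusted p = 0.673) and -0.33 ± 0.14 SE (adjusted p = 0.108)), and those at 12.5% were lower still. SPC24 changed by -1.13 ± 0.14 SE (adjusted p = 2.59e-06) at 12.5% on day 6, by -0.85 ± 0.14 SE (adjusted p = 9.74e-05) on day 9 and by -2.01 ± 0.14 SE (adjusted p = 1.05e-10) without histidine.

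CENPE, a kinetochore motor, and CENPF, a large kinetochore and nuclear matrix protein, were both higher at 25% on day 9. On day 6 CENPE was 1805, 1835 and 1485 at 100%, 2212, 2170.3 and 2421 at 50%, 2848 and 2717 at 25%, 1315, 1354 and 1325 at 12.5%, and 745, 555 and 469 without histidine. On day 9 CENPE was 1601, 1530.4 and 1586 at 100%, 2052 and 1767 at 50%, 2403, 3127 and 3597 at 25%, and 1086, 1255 and 1277 at 12.5%. CENPE at 12.5% was below 100% in all libraries of both days. Its change at 12.5% was -0.35 ± 0.14 SE (adjusted p = 0.06) on day 6 and -0.39 ± 0.14 SE (adjusted p = 0.0479) on day 9, a call that was lost when any of 17 of the 25 libraries was left out (adjusted p 0.0506 to 0.174), and at 25% it was 0.71 ± 0.15 SE (adjusted p = 0.00254) and 0.93 ± 0.14 SE (adjusted p = 3.21e-05).

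On day 6 CENPF was 6698, 6541 and 5633 at 100%, 8433, 6798 and 9069.7 at 50%, 8387 and 8256 at 25%, 9667, 9599 and 8542 at 12.5%, and 4205, 3219 and 2721 without histidine. On day 9 CENPF was 5326, 5813 and 5156 at 100%, 4837 and 5844 at 50%, 8348, 9343 and 9435 at 25%, and 4574, 6308 and 5405 at 12.5%. CENPF at 12.5% was above every 100% library on day 6 and overlapped 100% on day 9. It changed by 0.56 ± 0.14 SE (adjusted p = 0.00325) and -0.01 ± 0.14 SE (adjusted p = 0.971) at 12.5%, and by 0.41 ± 0.15 SE (adjusted p = 0.0783) and 0.73 ± 0.14 SE (adjusted p = 0.000383) at 25%. CENPA, the centromeric histone, and KNSTRN, a kinetochore and spindle protein, were lower at 12.5% on both days (-0.72 and -0.57 for CENPA, -0.74 and -0.40 for KNSTRN), and both were higher at 25% on day 9 (0.52 and 0.69). The day 9 call of KNSTRN at 12.5% was lost when any of 4 libraries was left out (adjusted p 0.0646 to 0.0865), and that of CENPA when 1 library was left out (adjusted p = 0.0577).

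**Figure D3:**
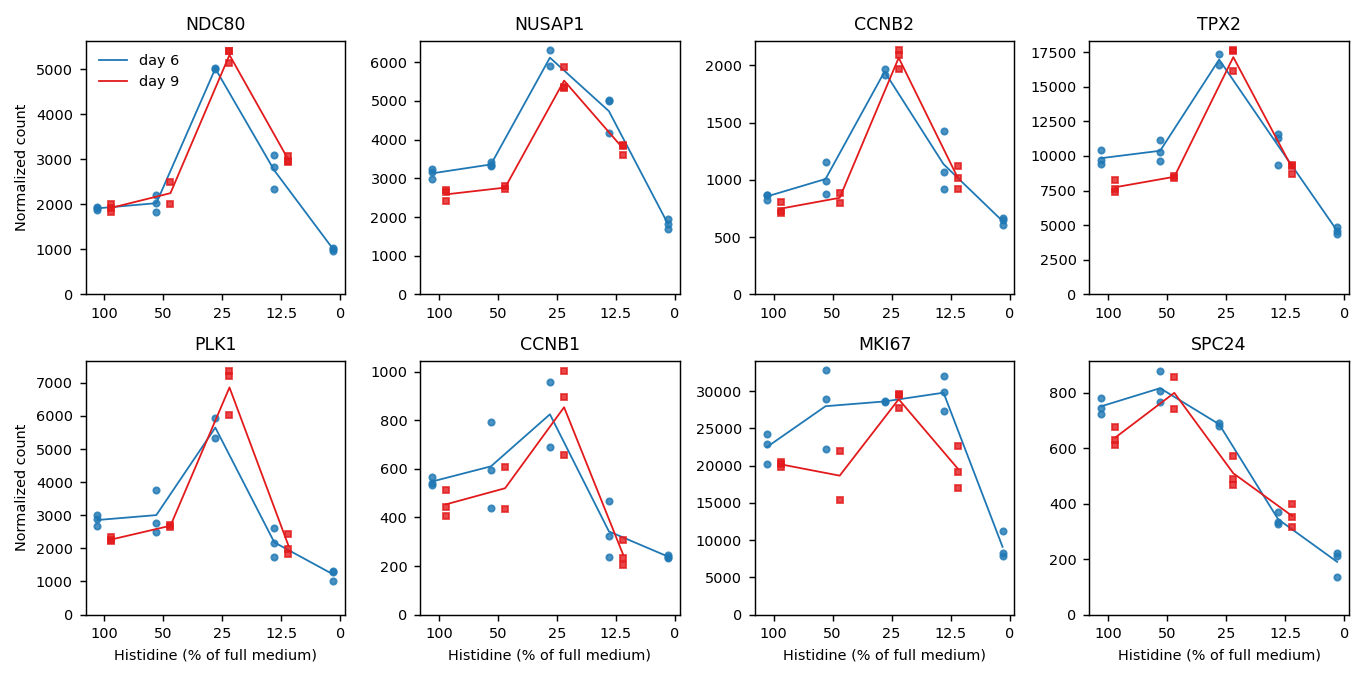
Normalized counts of 8 genes (y axis from 0) against histidine in the medium as a percentage of full medium, with 1 circle for each day 6 library, 1 square for each day 9 library and lines through the group means. PLK1 reaches 6038 to 7349 at 25% on day 9 and NDC80 5002 to 5414 at 25% over both days, while SPC24 has no peak at 25%.

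The spindle genes include the motors KIF11, KIF2C, KIF4A, KIF15 and KIF18A, the Aurora A activator TPX2, and the pole and microtubule proteins ASPM, NUSAP1, HMMR, DLGAP5, CKAP2, CKAP2L and TACC3, with the centrosome kinase NEK2. At 25%, 11 of these 14 were higher on day 6 and 13 on day 9 (medians 0.58 and 0.80). Without histidine all 14 were lower (median -1.26). KIF15, a plus-end motor that backs up KIF11, was the 1 of the 14 that passed at 25% on neither day (0.20 and 0.26).

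On day 6 TPX2 was 10448, 9678 and 9400.2 at 100%, 10301, 11168 and 9659 at 50%, 17328 and 16595 at 25%, 9324, 11572 and 11319.6 at 12.5%, and 4593, 4866 and 4336 without histidine. On day 9 TPX2 was 7607, 8246 and 7376 at 100%, 8589 and 8402 at 50%, 16169.7, 17656 and 17588 at 25%, and 9292, 9358 and 8688 at 12.5%. TPX2 was highest at 25% in every library, by more than the spread within any group. It rose by 0.79 ± 0.09 SE (adjusted p = 4.51e-06) and 1.15 ± 0.08 SE (adjusted p = 2.76e-09) at 25%, and changed by -1.10 ± 0.08 SE (adjusted p = 5.73e-10) without histidine. The change at 12.5% on day 9 was 0.24 ± 0.08 SE (adjusted p = 0.0485), a call lost when any of 18 of the 25 libraries was left out (adjusted p 0.0504 to 0.166).

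NUSAP1, which bundles spindle microtubules, was higher at both 25% and 12.5%. On day 6 NUSAP1 was 2996, 3155 and 3235 at 100%, 3418, 3322 and 3336 at 50%, 5913 and 6324 at 25%, 4184, 4987 and 5036 at 12.5%, and 1946, 1829 and 1694 without histidine. On day 9 NUSAP1 was 2658, 2696 and 2404 at 100%, 2791 and 2729.9 at 50%, 5869, 5344 and 5362 at 25%, and 3616, 3867 and 3833 at 12.5%. The order 25%, 12.5%, 100%, none held in the libraries of day 6 without overlap. The changes at 12.5% were 0.59 ± 0.08 SE (adjusted p = 6.69e-06) on day 6 and 0.55 ± 0.08 SE (adjusted p = 2.33e-05) on day 9, and those at 25% were 0.97 ± 0.09 SE (adjusted p = 1.76e-07) and 1.10 ± 0.08 SE (adjusted p = 2.34e-09).

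ASPM, the abnormal spindle protein of the poles, was higher at 12.5% on day 6 and did not pass there on day 9, and the difference between the days did not pass either (-0.46 ± 0.18 SE, adjusted p = 0.391). On day 6 ASPM was 4790.1, 5007 and 4181 at 100%, 5540.1, 4764 and 6298 at 50%, 6401 and 6354 at 25%, 6603, 6849.7 and 6141 at 12.5%, and 2701, 1959 and 1825 without histidine. On day 9 ASPM was 4092, 3687 and 3504 at 100%, 3457 and 4428 at 50%, 6009, 6654 and 6970.1 at 25%, and 3491, 4296 and 3717 at 12.5%. On day 6 the 25% and 12.5% libraries overlapped each other above 100%, and on day 9 the 12.5% libraries overlapped 100%. The change at 25% on day 6, 0.46 ± 0.14 SE (adjusted p = 0.0356), was lost when any of 4 libraries was left out (adjusted p 0.0626 to 0.164). At 12.5% it was 0.49 ± 0.13 SE (adjusted p = 0.00633) on day 6 and 0.03 ± 0.13 SE (adjusted p = 0.926) on day 9.

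Cytokinesis genes build the central spindle and the contractile ring: KIF20A, KIF23, RACGAP1 and PRC1 at the midzone, ECT2 as the activator of RhoA, ANLN and CIT at the ring, and CEP55 and KIF14 at the midbody. Of these 9 genes 4 were higher at 25% on day 6 (KIF20A, KIF23, ANLN and RACGAP1) and 8 on day 9, all but CEP55 (0.09). Both subunits of centralspindlin rose at 25%, KIF23 by 0.61 and 0.69 and RACGAP1 by 0.54 and 0.69 on days 6 and 9. PRC1, ECT2 and CEP55 were lower at 12.5% on both days (-0.57 and -0.34, -0.51 and -0.52, -0.40 and -0.51).

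KIF20A, the midzone kinesin MKLP2, had the largest difference between the days at 25%. On day 6 KIF20A was 1087, 1115 and 1080.0 at 100%, 1055, 1349 and 1125 at 50%, 1592 and 1535 at 25%, 1053, 1153 and 1223 at 12.5%, and 534, 556 and 519.9 without histidine. On day 9 KIF20A was 899.9, 912 and 799 at 100%, 1045 and 1098 at 50%, 1891, 2149.6 and 2009.7 at 25%, and 920.2, 889 and 860.3 at 12.5%. On both days the 25% libraries were above all others, and the 12.5% libraries stayed near those at 100%. The change at 25% was 0.51 ± 0.10 SE (adjusted p = 0.000901) on day 6 and 1.21 ± 0.09 SE (adjusted p = 2.74e-09) on day 9, and the difference of those changes was 0.70 ± 0.13 SE with an adjusted p of 0.155. KIF20A was also among the 3 members, with TPX2 and TACC3, that were lower on day 9 than on day 6 at 100% histidine (-0.33 ± 0.09 SE, adjusted p = 0.0478), a call lost when any of 19 of the 25 libraries was left out.

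ANLN, the anillin of the contractile ring, rose at 25% and 12.5% on both days. On day 6 ANLN was 1079, 1065 and 1036 at 100%, 1124, 1054 and 1152 at 50%, 2065 and 1975 at 25%, 1441, 1612 and 1596 at 12.5%, and 701, 671 and 650.1 without histidine. On day 9 ANLN was 1044, 1176 and 1056 at 100%, 1076 and 1128 at 50%, 2389, 2319 and 2464 at 25%, and 1438, 1578 and 1495 at 12.5%. The libraries at 25%, 12.5% and 100% did not overlap on either day. The changes at 12.5% were 0.55 ± 0.07 SE (adjusted p = 8.07e-06) and 0.46 ± 0.07 SE (adjusted p = 7.11e-05), and those at 25% were 0.93 ± 0.08 SE (adjusted p = 1.1e-07) and 1.13 ± 0.07 SE (adjusted p = 5.11e-10).

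Genes of chromosome structure include the condensin subunits NCAPG, NCAPH, NCAPD2, SMC2 and SMC4, topoisomerase II alpha (TOP2A) and Ki-67 (MKI67), the coat of mitotic chromosomes. At 25%, 2 of 7 were higher and 1 lower on day 6, and 5 of 7 were higher on day 9. Without histidine all 7 fell (median -1.32).

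The condensin I subunits NCAPG, NCAPH and NCAPD2 sit in 1 complex with SMC2 and SMC4. On day 6 NCAPG was 1857, 1592 and 1625 at 100%, 1684, 1904 and 1590.2 at 50%, 3361 and 3267 at 25%, 1824, 2154 and 2342 at 12.5%, and 654, 724 and 664 without histidine. On day 9 NCAPG was 1839, 1978 and 1886 at 100%, 2016 and 2037 at 50%, 3618, 3871 and 3882 at 25%, and 2068, 2001 and 1974 at 12.5%. NCAPG at 25% was above all other libraries on both days. It rose by 0.97 ± 0.10 SE (adjusted p = 7.4e-07) and 1.00 ± 0.09 SE (adjusted p = 3.91e-08) at 25%.

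On day 6 NCAPH was 2270.4, 2366 and 2517 at 100%, 2165, 2507 and 2128 at 50%, 1886 and 2037 at 25%, 1079, 1462 and 1409 at 12.5%, and 643, 599 and 598 without histidine. On day 9 NCAPH was 2554, 2275 and 2170.0 at 100%, 2857 and 2556 at 50%, 2078, 2133 and 1828 at 25%, and 1267, 1284 and 1326 at 12.5%. NCAPH at 25% lay below 100% on both days, short of the threshold (-0.28 ± 0.11 SE (adjusted p = 0.109) and -0.21 ± 0.10 SE (adjusted p = 0.166)). At 12.5% it changed by -0.87 ± 0.10 SE (adjusted p = 1.43e-06) and -0.85 ± 0.10 SE (adjusted p = 2.26e-06), and without histidine by -1.96 ± 0.10 SE (adjusted p = 1.53e-12), the second largest fall of the 56.

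On day 6 NCAPD2 was 4192, 4130.0 and 3838 at 100%, 4408, 4154 and 4032 at 50%, 3215 and 2953 at 25%, 2441, 2801 and 2699.8 at 12.5%, and 1679, 1568 and 1624 without histidine. On day 9 NCAPD2 was 3655, 3448 and 3269 at 100%, 3530.2 and 3763 at 50%, 3622, 3528 and 3417 at 25%, and 2403, 2369 and 2456 at 12.5%. NCAPD2 was the 1 member lower at 25% on day 6, where both libraries were below all 3 at 100%, and on day 9 the 25% and 100% libraries overlapped. The change was -0.39 ± 0.08 SE (adjusted p = 0.00142) on day 6 (-0.33 ± 0.10 SE, adjusted p = 0.0512, without replicate 3 at 25%) and 0.03 ± 0.07 SE (adjusted p = 0.853) on day 9. At 12.5% it was -0.62 ± 0.07 SE (adjusted p = 1.18e-06) and -0.52 ± 0.07 SE (adjusted p = 1.32e-05). SMC2 rose at 25% (0.62 and 0.53).

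TOP2A, which untangles sister chromatids, did not pass at 25% on day 6. On day 6 TOP2A was 20276, 18859.5 and 17567 at 100%, 20726, 20544 and 19824 at 50%, 18962 and 18670.5 at 25%, 13930.2, 15868 and 15069.9 at 12.5%, and 6955, 6334 and 5738 without histidine. On day 9 TOP2A was 16858, 14579 and 14937 at 100%, 18149.7 and 17600.3 at 50%, 17743, 18736 and 19363 at 25%, and 11303, 12503 and 12014 at 12.5%. The libraries at 25% lay within the range at 100% on day 6 and above it on day 9, and those at 12.5% were below it on both days. TOP2A changed by 0.27 ± 0.08 SE (adjusted p = 0.0236) at 25% on day 9, a call lost when any of 4 libraries was left out (adjusted p 0.0682 to 0.104), and by -0.34 ± 0.08 SE (adjusted p = 0.0035) and -0.37 ± 0.08 SE (adjusted p = 0.00205) at 12.5%. Without histidine it changed by -1.58 ± 0.08 SE (adjusted p = 1.53e-12).

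MKI67 was among the 3 members with the highest mean at 12.5% on day 6. On day 6 MKI67 was 22925, 24195 and 20249.7 at 100%, 28876, 22226 and 32818 at 50%, 28487 and 28738 at 25%, 29879, 32096 and 27390.3 at 12.5%, and 11239.6, 8219 and 7828 without histidine. On day 9 MKI67 was 20277, 19796 and 20436 at 100%, 15405 and 21893 at 50%, 29550.0, 29480.0 and 27696 at 25%, and 16991, 22677 and 19148 at 12.5%. On day 6 the 12.5% libraries were above all 100% libraries and overlapped those at 50% and 25%, and on day 9 they overlapped 100%. The change at 12.5% on day 6 was 0.41 ± 0.15 SE (adjusted p = 0.0395), lost when any of 4 libraries was left out (adjusted p 0.0726 to 0.151), and that on day 9 was -0.05 ± 0.15 SE (adjusted p = 0.861). At 25% MKI67 changed by 0.35 ± 0.16 SE (adjusted p = 0.166) and 0.52 ± 0.15 SE (adjusted p = 0.0137), and without histidine by -1.32 ± 0.15 SE (adjusted p = 1.92e-07).

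**Figure D4:**
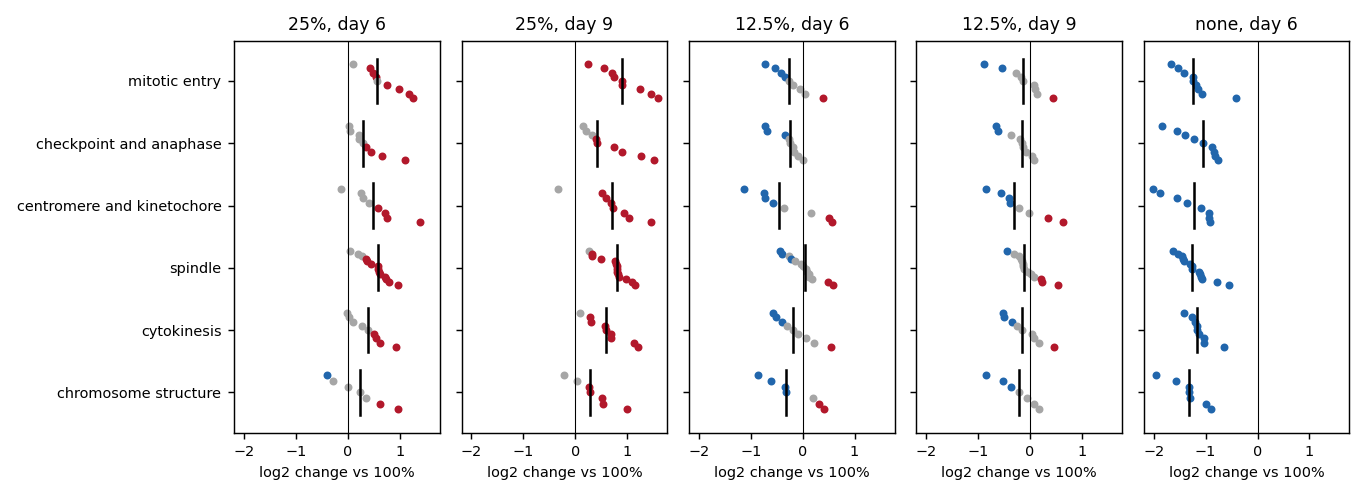
log2 change against 100% of the same day (x axis) for each gene (1 point per gene) in the 6 roles (rows), in 5 panels for 25% and 12.5% on both days and no histidine on day 6; red points were higher and blue lower at an adjusted p under 0.05, gray points did not pass, and black bars are role medians. Every role has its points below 0 without histidine, and the spindle and mitotic entry genes have the highest medians at 25% on day 6 (0.58 and 0.57).

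The 3 members with their highest mean at 12.5% on day 6 (MKI67, CENPF and ASPM) have the longest transcripts of the 56, with 12678, 10307 and 10887 bases in the longest coding transcript of GENCODE 29. Transcript length moved with the change at 12.5% on day 6 over the whole table. Among 12162 tested genes with a length, the median change was -0.30 for transcripts of up to 1500 bases, -0.18, -0.07 and 0.01 in the next length classes, and 0.14 for those over 6000. The members followed the same direction, from -0.64 for the 4 shortest to 0.06 for the 8 over 6000 bases, with a Spearman correlation of 0.32 over the 56 genes (0.23 over all 12162, which share the libraries).

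At 12.5% on day 9 the length classes of all genes ran from -0.10 to 0.03 only, and at 50% on day 9 the order was turned, with a Spearman correlation of -0.65 over the members and -0.27 over all genes. At 50% on day 6 the correlation was 0.39 over the members and 0.14 over all genes. At 25% it was -0.29 on day 6 and -0.37 on day 9 over the members, against -0.02 and 0.04 over all genes. With the length trend of all genes removed, a step added after the data had been seen, the change of MKI67 at 12.5% on day 6 was 0.17 ± 0.09 SE (adjusted p = 0.139). CDK1 (-0.12, adjusted p = 0.225), PLK1 (-0.23, adjusted p = 0.104), KIF2C (-0.12, adjusted p = 0.0832) and NEK2 (-0.20, adjusted p = 0.205) also lost their calls there. Among kept calls, UBE2C went from -0.73 to -0.34, SPC25 from -0.57 to -0.26, CENPA from -0.72 to -0.43 and ASPM from 0.49 to 0.29. CENPF (0.37), NDC80, NUSAP1, CCNB2 and ANLN kept theirs, and MAD2L1, NUF2, CENPE and TPX2 passed in that fit and not in the one without the step. With that trend removed, 40 members passed at 25% on day 6, 48 at 25% on day 9, 28 and 24 at 12.5% on the 2 days and 56 without histidine. That fit held 12162 genes with a length in place of 18799. Its counts are therefore not to be read against the shares of all genes given above.

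**Figure D5:**
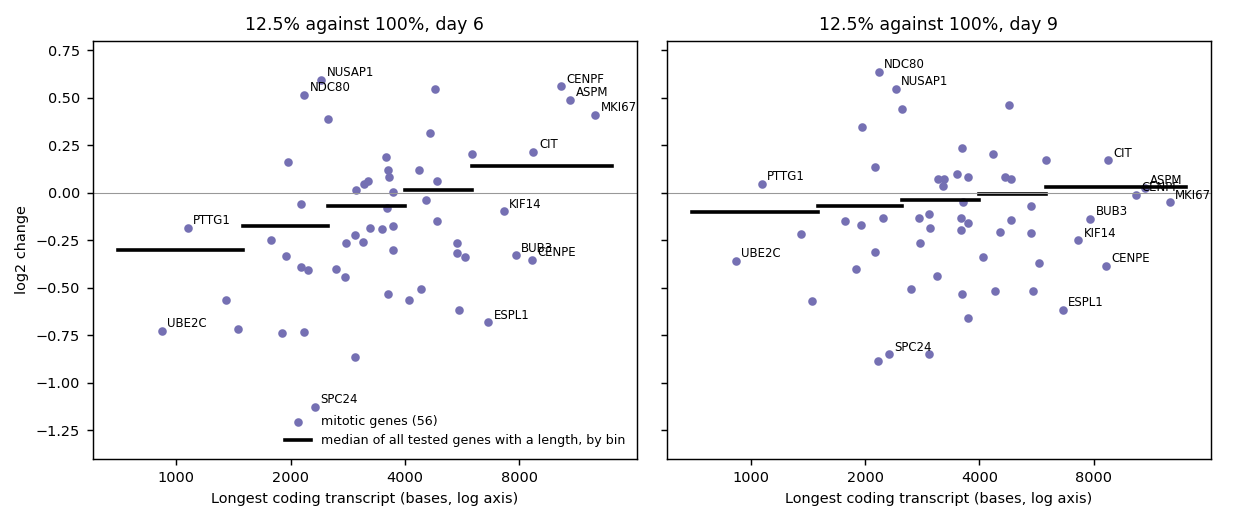
log2 change against 100% (y axis) by length of the longest coding transcript in bases (x axis, log scale) for the 56 genes (points), with the medians of all tested genes with a length in 5 length classes (horizontal bars), in 1 panel for day 6 and 1 for day 9, both at 12.5% histidine. At 12.5% on day 6 the medians rise from -0.30 to 0.14 with length, and MKI67, CENPF and ASPM lie at the long end.

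Over the days as a whole, the changes at 25% and 12.5% were not shown to differ between day 6 and day 9 for any member. In limma's test of the difference of changes, 0 members passed at 25% and 0 at 12.5%, and 0.00532% and 0.0638% of all genes passed. At an unadjusted p under 0.05 there were 10 and 8 members, against 5.5% and 10% of all genes, so the count at 12.5% was near the background. At 25%, 52 of the 56 differences were positive, that is, larger on day 9, against 50.6% of all genes. At 100% histidine 3 members were lower on day 9 than on day 6 and none higher (1.07% and 1.1% of all genes), and the median member change between the days was -0.20. Leaving out 1 library gave 1 to 5 members there, with 1 passing (TACC3) when any replicate of day 6 or replicate 3 of day 9 at 100% was left out, 5 without replicate 1 at 12.5% on day 6, and 0 without the keratin-high libraries. Library weights, upper-quartile rescaling, quantile normalization and removal of the length trend each gave more than 3 members between the days at 100%. Their counts are in the section on processing, so this count depends on the scaling. Averaged over the 2 days, 46 members were higher and 2 lower at 25% (13.3% and 13.2% of all genes), and 11 were higher and 27 lower at 12.5% (17% and 19%). Without the keratin-high libraries these were 42 and 0 at 25%, and 10 and 18 at 12.5%.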

How the data were processed

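Per the labels' protocols, the input was total RNA and the library preparation kept strand. The deposited values are a signal for each gene and library, which the authors obtained as normalized counts. Per the submitters' processing notes, kallisto (0.50.1) and DESeq2 (1.44.0) were used on GRCh38, and FastQC (0.11.9) is listed. The annotation release used for quantification, and its strand setting, were not given in the sources used here. Scaling by size factors takes out any difference in RNA per cell. Low values were not whole multiples of 1 step per library (37.8% to 76.2% of values under 20 were within 0.05 of one), so reads were not recovered, count tests were left out, and the only measure of depth is the sum of normalized counts per library, 13574787 to 16097408.

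A gene was tested if 2 or more libraries had at least 10 (18799 of 31919 genes). The log2 of the value plus a pseudocount of 1, which understates changes of low genes, was modelled by limma (3.58.1, R 4.3.3) as 9 group means with an intensity trend, leaving 16 residual degrees of freedom. Tests were two-sided, Benjamini-Hochberg adjusted over all genes tested, with a threshold of 0.05, and the procedure was tested on simulated data. Alternatives were other pseudocounts, no filter, other scalings, library weights, a replicate block, a keratin covariate, the compared groups alone, removal of a length trend, and leaving out libraries.

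Groups follow the titles. Days are those of the samples, which differ from the series text. Gene coordinates and promoters are RefSeq's on GRCh38.p14, and transcript lengths are from GENCODE 29, matched by symbol. All 56 members may be named. Values in every library are given for a list of 18 genes and for the 2 largest rises and falls of the main comparisons. They are also given for CCNB2, ASPM and NCAPG, which lie outside that rule. Of other lists up to 3 genes with the largest change are named. The members, roles, lists and rules were chosen with earlier results of these data known. Python 3.11.15 and matplotlib 3.10.9 drew the figures.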

Additional observations from a re-analysis of the deposited data

How the results depend on the processing

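Leaving out 1 library at a time gave 21 to 35 members called at 25% on day 6, 42 to 49 on day 9, 20 to 31 and 17 to 24 at 12.5%, and 56 each time without histidine. It gave 20 to 28 and 30 to 40 for 25% against 50%, 40 to 49 and 51 to 55 for 12.5% against 25%, 53 to 56 for none against 12.5%, and 1 to 5 for day 9 against day 6 at 100%. The means of both days gave 43 to 50 at 25% and 30 to 39 at 12.5%. Counts that moved by over 1.5 times elsewhere were those without keratin-high libraries (17 at 12.5% on day 6, 25 for 25% against 50% on day 9, and 0 for the days at 100%), with library weights (3 at 50% on day 6, 14 for the days at 100%, 1 for the day difference at 25%), with quantile normalization (9 and 1 for the last 2), with upper-quartile rescaling (12 for the days at 100%) and with the length trend removed (22 and 2). No mean-variance trend and the keratin covariate each gave 1 for the days at 100%. PTTG1 at 12.5% over both days did not pass in the main limma fit (-0.07, adjusted p = 0.632). With the length trend removed it changed sign and passed as higher (0.17, adjusted p = 0.0137). The cause was not tested. The remaining alternatives kept each count of members within 1.5 times.

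Replicate numbers did not pair the libraries: residuals of 92 same-number pairs correlated at -0.128 to 0.0819, and 0 pairs were over 0.1. With the replicate block, 33 and 45 members passed at 25% on days 6 and 9, 28 and 20 at 12.5%, and 56 without histidine. Depth is known only as normalized totals, and groups of 2 and 3 libraries limit the precision.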

Other observations

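Other genes of the same machinery were described from lists that hold none of the 56. Their counts are to be read against all genes tested, of which 6.79% were higher and 6.92% lower at 25% on day 6, 9.4% and 8.76% at 25% on day 9, 11.7% and 15.3% at 12.5% on day 6, 9.35% and 11.5% at 12.5% on day 9, and 13.3% and 16.5% without histidine. Of 34 other kinetochore and centromere genes, 30 were lower and 1 higher without histidine, and at 25% on day 6, 11 were higher and 3 lower. CENPQ (0.91) and SGO2 (0.88) rose at 25% on day 6 and TRIP13, an ATPase that disassembles the checkpoint complex, changed by -1.26; without histidine SKA1 changed by -1.91 and CENPK by -1.72. Of 24 other kinesins and spindle genes, 20 were lower without histidine, with 5 higher and 3 lower at 25% on day 6. PSRC1 (0.82), HAUS2 (0.76) and HAUS8 (0.49) were the largest of the latter, and HAUS5 (-1.90), KIF22 (-1.59) and HAUS4 (-1.34) had the largest falls without histidine. Of 20 other genes of mitotic entry and the DREAM complex, 7 were higher at 25% on day 6, among them CDC25A (0.78), BORA (0.75) and WEE1 (0.74), and 13 were lower without histidine, led by PKMYT1 (-1.96), MYBL2 (-1.92), which encodes B-MYB, and CKS1B (-1.61).

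The chromosomal passenger complex and the Aurora kinases held genes called in both directions at 25%. BIRC5 (0.76), which encodes survivin, and AURKA (0.75) were higher and AURKB (-0.82) was lower on day 6, and the same 3 calls were made on day 9, while CDCA8 and INCENP did not pass. AURKB was at 3680 to 3772 at 100%, 2102 and 2126 at 25%, 1004 to 1567 at 12.5% and 563 to 787 without histidine on day 6, so its groups did not overlap, with no peak at 25%. All 5 fell without histidine, AURKB with a change of -2.43. The MCM helicase, which licenses replication origins, did not rise at 25% either: of its 6 subunits 1 was lower on day 6 and 5 on day 9, and all 6 were lower at 12.5% on both days and without histidine. MCM2 changed by -1.08 at 25% on day 6 and by -1.85 without histidine. Of 16 subunits and partners of the anaphase-promoting complex, 2 were higher and 3 lower at 25% on day 6 (6.79% and 6.92% of all genes). Without histidine 1 was higher and 4 lower (13.3% and 16.5% of all genes). With 16 genes, these small counts are not read as a result in either comparison.

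Of 12 centriole genes 10 were lower without histidine, with CENPJ (-1.95) and PLK4 (-1.37) the largest falls, and 2 were higher at 25% on day 6 (CEP120, 0.55, and CEP152, 0.49). Of 16 other condensin and cohesin genes 11 were lower and 1 higher without histidine; at 25% on day 6, 5 were higher and 2 lower, with ESCO2, a cohesin acetyltransferase, at 1.22, CDCA5 at 0.69 and SMC1A at -0.74. Of 17 abscission genes, 3 were higher and 2 lower without histidine, near the 13.3% and 16.5% of all genes, and 5 were higher at 25% on day 6, among them TSG101 (0.63), VPS4B (0.58) and CHMP5 (0.48). Without the library that has the day 9 time label, the counts without histidine against 100% changed as follows: the 1 higher kinetochore and centromere gene and the 1 higher condensin or cohesin gene no longer passed, 14 in place of 13 entry and DREAM genes were lower, and 2 in place of 1 anaphase-promoting complex genes were higher. The other counts without histidine were equal. These lists were described by their counts and not tested as sets.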
